A study of Mus musculus with 6 samples.

Results

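The genes described here are the transcription factor gene Atf4 and 9 genes of its stress and amino acid programme, namely Asns, Psat1, Phgdh, Shmt2, Chac1, Trib3, Ddit3, Sesn2 and Slc7a11. They were chosen by name as genes of ATF4 target and serine and asparagine synthesis pathways, with earlier results of these data known. Each has 1 probe set that the platform annotation gives to that gene alone. They are 10 of the 19938 genes measured. The cells were dermal cells from the skin of neonatal C57BL/6 mice, cultured for 2 days and profiled on 6 one-colour arrays. The 3 control arrays are labelled DMSO, the usual solvent of such compounds. The 3 arrays labelled FR come from cells that received 20 µM forskolin plus 20 µM RepSox. Forskolin turns on the enzyme that makes cyclic AMP, and RepSox blocks the kinase of the TGF-β type I receptor. The pair was given only together, so the share of either compound cannot be told apart. Whether replicates are different cultures, animals or only different preparations is not stated in the labels. The p-values therefore cover the spread among these arrays alone, and that spread may be technical.

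ATF4 is a basic leucine zipper transcription factor at the centre of the integrated stress response. Kinases that sense amino acid shortage, unfolded proteins, double-stranded RNA or haem shortage phosphorylate the initiation factor eIF2α, which lowers protein synthesis in general while ATF4 protein is made. ATF4 then turns on genes for amino acid synthesis, uptake and tRNA charging, often through a composite DNA element that it binds with a C/EBP partner. Much of this control is translational, so the level of Atf4 mRNA measured here is not the level of ATF4 protein. In human lung fibroblasts TGF-β is known to use ATF4 to raise serine and glycine synthesis, and glycine is the most frequent residue of collagen.

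Of the 10 genes, 8 fell with FR, 1 rose and 1 did not pass the test (limma, Benjamini-Hochberg adjusted p under 0.05 over all genes). Atf4 itself and the enzyme genes for asparagine, serine and glycine were among those that fell, by 1.51-fold to 2.51-fold. The gene that rose was Slc7a11, which encodes the cystine transporter, 2.18-fold. Trib3 was the gene that did not pass. Over all genes 14.5% were lower and 13.4% higher by the same test, 27.9% in either direction. The median log2 change of the 10 genes was -0.67, against 0.05 for all genes. The arrays of the 2 groups did not overlap for 9 of the 10 genes, against 43.9% of all genes. Because the genes were chosen with earlier results of these data known, these comparisons describe them and are no independent test.

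The promoters of Slc7a11, Asns, Chac1 and Trib3 are shown because they are the 4 of the 10 whose start region holds the core of the C/EBP-ATF response element, and because Slc7a11 moved opposite to Asns. The window searched runs from 250 bases before to 50 bases after the start of the gene in RefSeq (GRCm38.p6), on both strands, for TGATGNAA, where N is any base. Capitals mark the matches, and each stretch is written 5′ to 3′ along the gene. The Slc7a11 stretch is chr3:50443614-50443713 on the minus strand, the Asns stretch chr6:7693210-7693309 on the minus strand, the Chac1 stretch chr2:119350992-119351091 on the plus strand and the Trib3 stretch chr2:152344028-152344057 on the minus strand.
Slc7a11: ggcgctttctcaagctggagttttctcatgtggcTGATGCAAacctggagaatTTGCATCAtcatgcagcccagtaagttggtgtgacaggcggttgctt
Asns: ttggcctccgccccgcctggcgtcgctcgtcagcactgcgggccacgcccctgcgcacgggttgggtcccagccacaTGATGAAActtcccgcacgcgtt
Chac1: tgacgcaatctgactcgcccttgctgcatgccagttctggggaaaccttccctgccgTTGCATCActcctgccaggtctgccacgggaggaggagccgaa
Trib3: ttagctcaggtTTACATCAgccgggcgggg
The Slc7a11 promoter held 2 matches, at -66 and at -47 from the start, the second on the other strand. Asns had its match at -23, Chac1 at -193 and Trib3 at 15 bases into the transcript.

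The element was found at 4 of the 10 genes, against 4.51% of the 27025 genes with such a window. Its stricter form TGATGCAA, which is contained in the wider motif, was found at Slc7a11 and Chac1, against 1.03% of all genes. The cyclic AMP response element TGACGTCA was found at 0 of the 10, against 2.03% of all genes. Among the other ATF4 target genes described below, 10 of 12 had a window and 4 held TGATGNAA, namely Nupr1, Pck2, Fgf21 and Vldlr. Over the 10 related gene lists described below, 13 genes held it, of which 9 were lower, 0 higher and 4 not passed by limma. Vldlr was among the last (log2 change 0.19, adjusted p = 0.309). With or without the element, 44 of the 110 genes of these lists were lower and 17 higher. Over all genes 14.5% were lower and 13.4% higher. The call of Tars, 1 of the 9, was lost without any 1 of 4 arrays (adjusted p up to 0.103). Only 86 of the 110 genes of these lists (78.2%) had a window, so no share is read from them. Of the 4 with the element among the 10 genes, Asns and Chac1 were lower, Slc7a11 higher and Trib3 not passed. These matches describe letters in a window and do not show binding. The 10 genes were chosen by name as ATF4 pathway genes, so their shares beside all genes are no independent test.

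**Figure D1:**
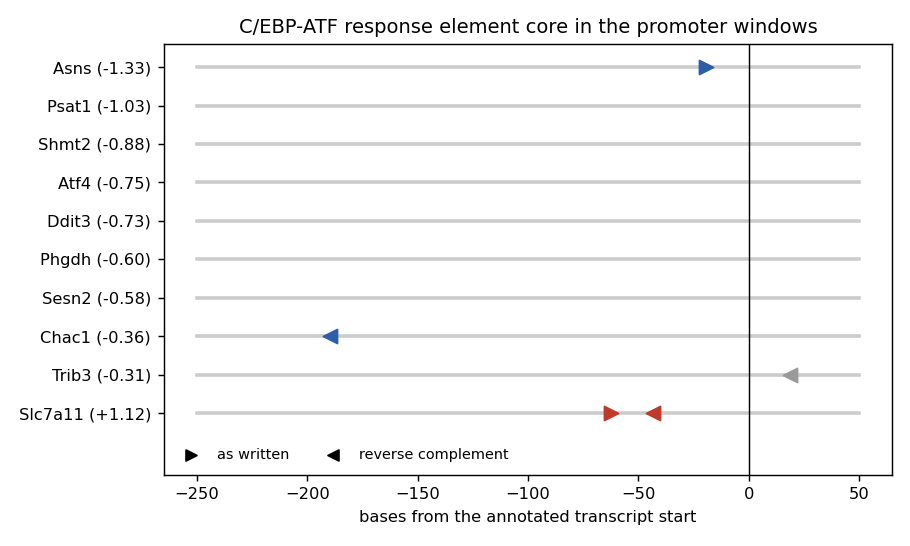
Positions of the TGATGNAA core in the promoter windows of the 10 genes, in bases from the annotated transcript start, with the log2 change of each gene (FR minus DMSO) in brackets and arrowheads for the strand of the match. Asns has 1 match at -23, Slc7a11 has 2 at -66 and -47, and 6 genes have no match. Colours mark genes lower (blue), higher (red) or not passed (grey).

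Expression is given as log2 RMA values, on which 1 unit is a 2-fold difference, and probe sets of different genes are not compared in level. Atf4 read 10.20, 10.29 and 10.19 on the 3 DMSO arrays and 9.52, 9.39 and 9.51 on the 3 FR arrays. The groups lay 0.66 apart at their nearest values, several times the range within either group. Atf4 was 1.68-fold lower with FR (log2 change -0.75, SE 0.08, adjusted p = 6.6e-05), and its mean went from 10.22 ± 0.05 to 9.48 ± 0.07 (SD, n = 3). The change was larger in size than that of 94.6% of all genes.

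**Figure D2:**
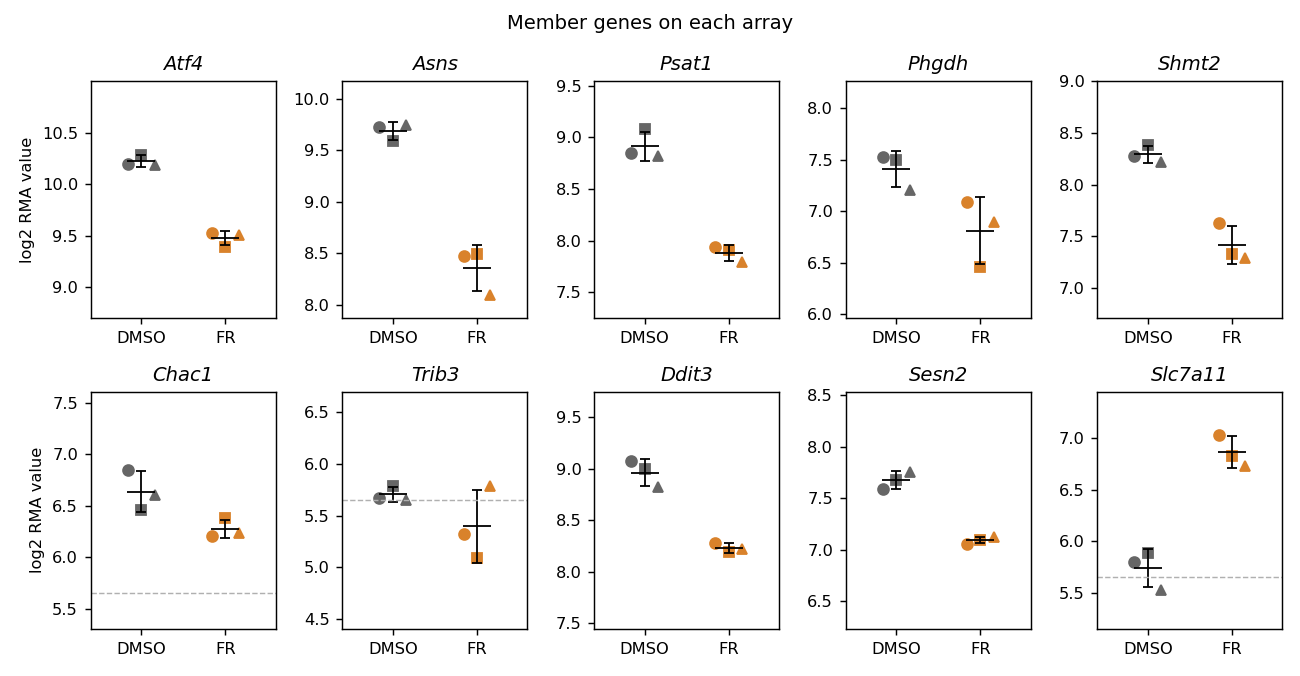
Log2 RMA values of the 10 genes on each array, grey for DMSO and orange for FR, with circle, square and triangle for replicates 1, 2 and 3. Black bars are the mean and SD (n = 3), each panel spans the same range, and the dashed line is the background level of 5.65; Slc7a11 is the panel in which FR lies above DMSO, and only Trib3 has overlapping groups.

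Asparagine synthetase, encoded by Asns, makes asparagine from aspartate and glutamine and is a classical ATF4 target. Its values were 9.73, 9.59 and 9.75 with DMSO and 8.47, 8.50 and 8.10 with FR. All FR arrays were low, the third most so. Asns had the largest fall of the 10 genes, 2.51-fold (log2 change -1.33, SE 0.11, adjusted p = 9.97e-06).

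Serine is made from a glycolytic intermediate by 3 enzymes in turn, PHGDH, PSAT1 and PSPH. Psat1, the aminotransferase gene, read 8.84, 9.08 and 8.82 with DMSO and 7.94, 7.91 and 7.79 with FR. The FR arrays lay close together and well below every DMSO array, a 2.05-fold fall (log2 change -1.03, SE 0.10, adjusted p = 1.77e-05). Phgdh, the gene of the dehydrogenase that opens the pathway, read 7.53, 7.50 and 7.21 with DMSO and 7.09, 6.46 and 6.90 with FR. The groups did not overlap but lay only 0.12 apart, and the FR arrays spread over 0.63. Phgdh was 1.51-fold lower (log2 change -0.60, SE 0.15, adjusted p = 0.0134). A second probe set that the annotation shares between Phgdh and Gm6756 gave a log2 change of -0.40, and was left out of the counts. Psph, the phosphatase gene of the last step, fell by 0.46 on the log2 scale (adjusted p = 0.00358), so the genes of all 3 steps fell.

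Shmt2 encodes the mitochondrial hydroxymethyltransferase that turns serine into glycine and a one-carbon unit. It read 8.27, 8.38 and 8.22 with DMSO and 7.63, 7.33 and 7.29 with FR. FR replicate 1 was the highest of the treated arrays and still 0.59 below the nearest control. The fall was 1.84-fold (log2 change -0.88, SE 0.10, adjusted p = 0.000113).

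Among the stress effectors, Ddit3, which encodes the transcription factor CHOP, read 9.07, 8.99 and 8.82 with DMSO and 8.28, 8.19 and 8.22 with FR. It fell 1.66-fold (log2 change -0.73, SE 0.09, adjusted p = 0.000145). Sesn2 encodes sestrin 2, a leucine sensor that restrains mTORC1 and is also a target of p53. It read 7.59, 7.67 and 7.76 with DMSO and 7.06, 7.09 and 7.12 with FR, a 1.495-fold fall (log2 change -0.58, SE 0.08, adjusted p = 0.000406). Both genes had tight FR groups that lay clear of the controls.

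Chac1 encodes an enzyme that breaks down glutathione, and had the smallest fall that passed. Its values were 6.85, 6.46 and 6.61 with DMSO and 6.21, 6.38 and 6.24 with FR, so the groups lay only 0.08 apart. It was 1.29-fold lower (log2 change -0.36, SE 0.11, adjusted p = 0.0296). This call did not hold with DMSO replicate 1 (adjusted p = 0.119) or 3 (0.0634), or FR replicate 1 (0.0727) or 3 (0.0845), left out.

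Trib3 encodes a pseudokinase that restrains ATF4 and CHOP in a feedback loop. It read 5.67, 5.79 and 5.65 with DMSO and 5.32, 5.09 and 5.78 with FR. FR replicate 3 lay among the controls, so the groups overlapped. The log2 change was -0.31, with a 95% interval from -0.64 to 0.02 (adjusted p = 0.152). Without FR replicate 3 it was -0.50 (adjusted p = 0.00888), and without FR replicate 2 it was -0.15. The gene was dim: 5.65 was the 95th percentile of the DMSO means of 1027 olfactory receptor genes, taken as a background level, and the Trib3 mean was 5.70 with DMSO and 5.40 with FR.

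Slc7a11 encodes the cystine and glutamate exchanger xCT, which supplies cysteine for glutathione and is a target of NRF2 as well as of ATF4. It read 5.80, 5.88 and 5.53 with DMSO and 7.03, 6.83 and 6.73 with FR. Every FR array lay at least 0.85 above the highest control. The rise was 2.18-fold (log2 change 1.12, SE 0.11, adjusted p = 3.55e-05). The control mean of 5.74 lay near the background level, a range in which array folds tend to be understated. Olfactory receptor genes had a median log2 change of 0.14.

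**Figure D3:**
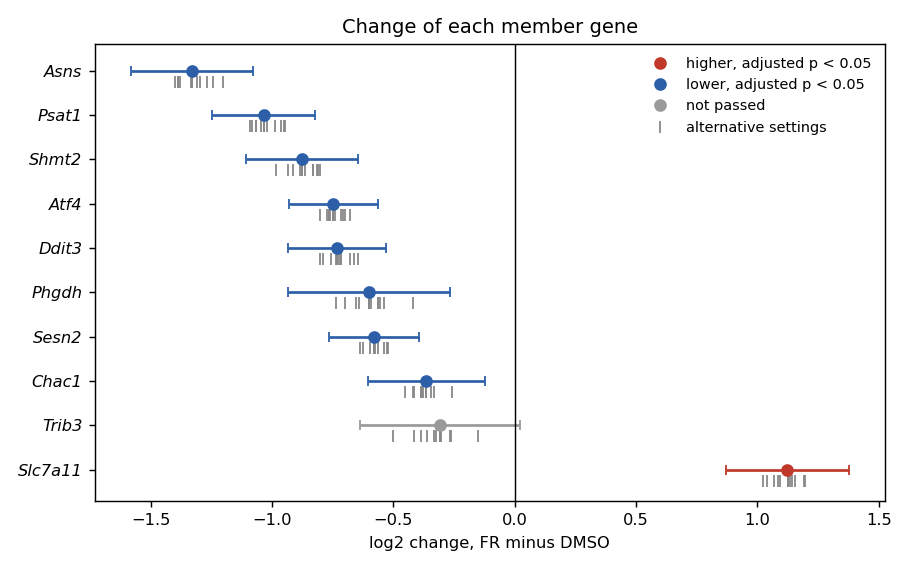
Log2 change of each gene (FR minus DMSO, 3 arrays a group) with its 95% interval, and below it the value under each alternative setting as a grey tick. From Asns at -1.33 to Chac1 at -0.36 the genes are lower, Trib3 has an interval that includes 0, and Slc7a11 lies at 1.12.

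In order of change, Asns came lowest, followed by Psat1, Shmt2, Atf4, Ddit3, Phgdh, Sesn2, Chac1 and Trib3, with Slc7a11 at the other end. The 95% intervals of neighbours in this order overlapped as far as Trib3, so the order between neighbours is not resolved. The interval of Asns (-1.58 to -1.08) did not reach that of Atf4 (-0.93 to -0.56), and that of Slc7a11 (0.87 to 1.38) was apart from all others. On the mean of the 9 genes other than Slc7a11, the DMSO arrays read 8.20, 8.19 and 8.11 and the FR arrays 7.50, 7.37 and 7.44. No array stood apart within its group by over 0.07 on that mean.

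One-carbon enzyme genes split in direction. Of 13 further genes of serine, glycine and one-carbon metabolism, 5 fell and 5 rose (median log2 change -0.02). Mthfd2, the mitochondrial enzyme gene that follows Shmt2, read 9.07, 9.04 and 8.98 with DMSO and 7.44, 7.55 and 7.29 with FR, a 3.03-fold fall (adjusted p = 5.03e-07). This was a larger fall than that of any of the 10 genes. Aldh1l2, a mitochondrial formyltetrahydrofolate dehydrogenase gene, fell 2.61-fold (adjusted p = 3.53e-06) and Mthfd1l, a mitochondrial formate-producing enzyme gene, fell by 0.62. The cytosolic Aldh1l1 fell by 0.67 as well. Cytosolic Shmt1 rose by 0.34 (adjusted p = 0.0143, but 0.0599 without DMSO replicate 2), and Mthfd1, the cytosolic trifunctional enzyme gene, had a log2 change of -0.02 (adjusted p = 0.931). Sfxn1, the mitochondrial serine carrier gene, rose by 0.72, the glycine cleavage gene Gldc by 0.68, the mitochondrial Mthfd2l by 0.47 and the thymidylate synthase gene Tyms by 0.30. The Tyms call was lost without any 1 of 4 arrays (each DMSO array and FR replicate 2; adjusted p up to 0.0964). Without DMSO replicate 2 the count of rises was 3.

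Around asparagine, 4 of 7 further genes of aspartate, asparagine and glutamine metabolism fell and 2 rose (median -0.33). Got1, the cytosolic aspartate aminotransferase gene, fell 2.17-fold (adjusted p = 1.26e-05). Asl, the argininosuccinate lyase gene, fell by 0.55 and Glud1, the glutamate dehydrogenase gene, by 0.40. Glul, which encodes glutamine synthetase, rose 2.17-fold (adjusted p = 4.7e-06). The other rise was that of the asparaginase gene Aspg, by 0.37, a call not held when DMSO replicate 2 or either of FR replicates 2 and 3 was left out, where 1 gene of this group was higher (adjusted p up to 0.139).

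Genes that charge tRNAs with amino acids fell where they changed. Of 18 cytosolic aminoacyl-tRNA synthetase genes, 9 fell and 0 rose by limma (median -0.26), with 0 higher also at unadjusted p under 0.05. The largest falls were those of the seryl enzyme gene Sars (1.79-fold, adjusted p = 2.9e-05), the cysteinyl enzyme gene Cars (1.75-fold), the glycyl enzyme gene Gars (1.70-fold) and the arginyl enzyme gene Rars (1.52-fold). The seryl and glycyl enzymes use the products of the pathway above. Nars, the asparaginyl enzyme gene, fell by 0.56 (adjusted p = 0.00106).

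Amino acid transporter genes were mostly lower too, with 9 of 14 down and 1 up (median -0.49). Slc7a5, the large neutral amino acid transporter gene LAT1, fell 2.13-fold (adjusted p = 1.6e-05). The glutamine carrier gene Slc38a1 fell 1.68-fold, the cationic transporter gene Slc7a2 1.65-fold and Slc38a4 1.58-fold. Slc38a2, another ATF4-responsive glutamine carrier gene, had a log2 change of 0.01 (adjusted p = 0.958). The rise was that of Slc43a1 (0.32, adjusted p = 0.0355), and with any of the 3 DMSO arrays, FR replicate 1 or FR replicate 2 left out 0 transporter genes were higher (adjusted p up to 0.114 for Slc43a1). Slc3a2 encodes the heavy chain that both LAT1 and xCT need at the membrane. It read 9.59, 9.56 and 9.67 with DMSO and 9.32, 9.35 and 9.14 with FR, a log2 change of -0.34 (adjusted p = 0.0162, and 0.067 without DMSO replicate 3). The heavy chain gene thus moved with Slc7a5 and not with Slc7a11.

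**Figure D4:**
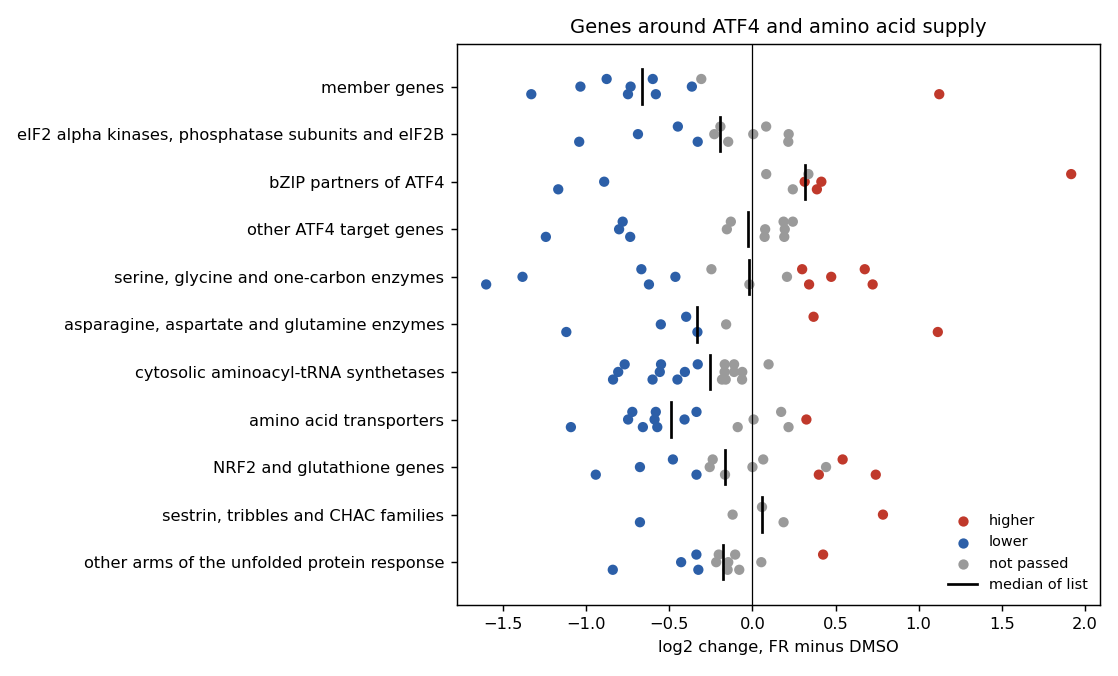
Log2 change (FR minus DMSO) of each measured gene in the 10 member genes and 10 related gene lists, in blue if lower, red if higher and grey if not passed at adjusted p under 0.05; black lines are medians. The synthetase list has 9 genes lower and 0 higher and the transporter list 9 lower and 1 higher, while the one-carbon list is split 5 and 5.

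Other ATF4 target genes were lower in 4 of 12 cases and higher in 0 by limma (median -0.03), with 1 higher at unadjusted p under 0.05. Aldh18a1, the gene of the enzyme that starts proline synthesis, fell 2.37-fold (adjusted p = 2.37e-06). The mitochondrial phosphoenolpyruvate carboxykinase gene Pck2 fell 1.74-fold, the alanine aminotransferase gene Gpt2 1.72-fold and the stress regulator gene Nupr1 1.66-fold. The 8 others did not pass, among them Ddit4 (0.08) and Stc2 (-0.15). Fgf21 read below the background level in both groups (5.45 and 5.52), a range in which array folds tend to be understated. Its log2 change was 0.07 (limma adjusted p = 0.65). Without FR replicate 3, 3 of the 12 genes were called higher.

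Upstream of ATF4, 4 of 11 genes of the eIF2α kinases, phosphatases and the exchange factor eIF2B fell and 0 rose by limma (median -0.19), with 1 higher at unadjusted p under 0.05. Eif2ak2, the double-stranded RNA sensor gene PKR, which interferon induces, fell 2.06-fold (adjusted p = 0.000426). Eif2ak4, the gene of the amino acid sensor GCN2, fell by 0.45 (adjusted p = 0.00253). Eif2ak3, the gene of the endoplasmic reticulum sensor PERK, fell by 0.33 (adjusted p = 0.0217), a call lost without any 1 of 4 arrays (DMSO replicates 1 and 2, FR replicates 2 and 3; adjusted p up to 0.0863). The eIF2B subunit gene Eif2b2 fell by 0.69. Ppp1r15a, the ATF4-induced phosphatase subunit gene GADD34, had a log2 change of -0.23 (adjusted p = 0.191). The arrays measure mRNA, and phosphorylation of eIF2α was not measured.

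Of 9 bZIP genes that can pair with ATF4 or act beside it, 4 rose and 2 fell (median 0.31). Cebpa, a C/EBP gene of fat cell differentiation, rose 3.78-fold (adjusted p = 1.76e-07) and Nfe2l2, which encodes NRF2, rose by 0.41. Jdp2 fell 2.25-fold and Atf5, itself an ATF4-linked stress gene, 1.85-fold. Atf3, a common partner in the stress response, read below the background level in both groups (log2 change 0.08, adjusted p = 0.666).

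NRF2 and glutathione genes, listed because Slc7a11 belongs to them too, were split, 3 of 13 being higher and 4 lower (median -0.17). Gclc, the catalytic subunit gene of glutathione synthesis, rose 1.67-fold (adjusted p = 8.25e-05) and the glutathione reductase gene Gsr 1.46-fold. The haem oxygenase gene Hmox1 fell 1.92-fold (adjusted p = 1.65e-05) and Chac2, a relative of Chac1 with the same activity, 1.598-fold. Nqo1, a standard NRF2 target, had a log2 change of 0.44 (limma adjusted p = 0.0531). Its values were 5.87, 5.90 and 5.93 with DMSO and 6.67, 6.42 and 5.94 with FR, so FR replicate 3 lay at the control level. Osgin1 also rose, by 0.40, but its call was lost without any 1 of 4 arrays (limma adjusted p up to 0.0925). Within the families of Sesn2, Trib3 and Chac1, 1 of 5 relatives rose and 1 fell. Over all genes 13.4% were higher and 14.5% lower, so these counts say little about the families. Trib1 rose 1.72-fold and Chac2 fell as given, while Sesn1, Sesn3 and Trib2 did not pass (log2 changes of -0.12, 0.19 and 0.06).

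The other arms of the unfolded protein response changed in 5 of 12 genes, 4 lower and 1 higher (median -0.18). By the same test 14.5% of all genes were lower and 13.4% higher. Herpud1, which ATF4 and ATF6 share, fell 1.79-fold (adjusted p = 0.000237), and Atf6 fell by 0.43. The co-chaperone gene Dnajc3 fell by 0.34, which missed the threshold with DMSO replicate 1 left out (adjusted p = 0.0602), when 2 genes of this group were lower. Edem1 also fell, by 0.325 (limma adjusted p = 0.0286), but its call was lost without any 1 of 5 arrays (adjusted p up to 0.0928). Dnajb9, a target of XBP1, rose by 0.43 (adjusted p = 0.0571 without DMSO replicate 2, when 0 were higher). The main chaperone gene Hspa5 had a log2 change of -0.10 (adjusted p = 0.375). Over the 10 lists together, 44 of 110 different genes fell and 17 rose, and 47 of these 61 calls held with any single array left out.

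The genes most like Atf4 over the 6 arrays, apart from the other 9, were Ndrg4, Clasp1, Arhgap10, Fabp3 and Klf12 (Pearson r from 0.9981 to 0.9992). Those most like Asns were Anxa7, Pacc1, Lipg, Atf6 and Rnf14 (r from 0.9983 to 0.9993). Such values rest on the split between the groups: of 12548 other genes above the background level, 118 reached r of at least 0.99 with Atf4 and 154 with Asns.

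Markers of several cell types moved with the treatment, and their part in these results was not tested. In bulk samples fewer cells of a type and less RNA per cell cannot be told apart. Fibroblast markers were all above the background level, and 6 of 10 fell and 3 rose, with a mean level of 10.94 to 10.997 on the DMSO arrays and 10.66 to 10.72 on the FR arrays. Keratinocyte markers rose in 9 of 10 cases (6.05 to 6.17 and 7.16 to 7.27), adipocyte markers in 6 of 6 (7.0691 to 7.1863 and 9.0001 to 9.1932) and skeletal muscle markers in 6 of 7 (5.71 to 5.81 and 6.52 to 6.71). Of the endothelial markers 3 of 7 rose, of the leukocyte markers 2 of 7, and of the melanocyte markers 3 of 7 with 1 lower. Their mean levels stayed under the background level on every array. With DMSO, 1 of 7 endothelial, 2 of 7 leukocyte and 3 of 7 melanocyte markers were above it. The melanocyte marker that fell was Mitf, from 7.58 to 6.39 (limma adjusted p = 4.28e-06). Ptprc, the pan-leukocyte marker, read 4.21 and 4.22 in the 2 groups, while the leukocyte markers Cd74 and Fcer1g rose by 0.33 and 0.32. Both risers read below the background level in both groups (4.69 and 5.02 for Cd74, 4.83 and 5.15 for Fcer1g). Cd68 and Cd3e, the leukocyte markers above that level, did not pass (limma adjusted p = 0.205 and 0.916). Over all genes, arrays correlated at 0.9926 to 0.9961 within groups and at 0.9717 to 0.9776 between them.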

How the data were processed

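The deposited table holds log2 values that the authors made by RMA in the oligo package, per the submitters' processing notes, of a version that is not given in the sources used here. It has 35556 probe sets, 0 missing values and 0 identical pairs of arrays. Arrays were grouped by title. Probe sets with 1 gene symbol in the platform annotation (21789) were kept, and the brightest of each gene over all 6 arrays was used, which left 19938 genes. All 10 genes described had 1 such probe set. The test was limma's moderated linear model (limma 3.58.1, R 4.3.3; group as sole term, two-sided, Benjamini-Hochberg over all genes, threshold 0.05), with no further normalization and no filter on dim genes.

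Folds are powers of 2 of the log2 change. The array number limits the precision (median SE 0.0962). In simulated data with 19938 genes, 100 were shifted by 0.5 log2 units and 100 by 1. The test found 51% of the former and 100% of the latter, and 12 of its 163 calls were false. Far more genes were called in the real data (27.9%), so these rates need not hold there. No pairing was used, since the labels do not say that a replicate number marks a shared culture or animal. Between arrays of the same number, deviations from the group mean correlated at -0.07, 0.05 and -0.03.

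The genes and lists were chosen with earlier results of these data known. From each list, up to 4 passing genes are named, by size of change. Further ones (Psph, Mthfd1l, Aldh1l1, Shmt1, Mthfd1, Mthfd2l, Tyms, Aspg, Nars, Tars, Slc38a2, Slc43a1, Slc3a2, Ddit4, Fgf21, Stc2, Vldlr, Ppp1r15a, Atf3, Nqo1, Osgin1, Sesn1, Sesn3, Trib2, Hspa5 and Edem1) were added after their values were seen. Some genes of the fixed lists are not reported here, and 4 genes stand in more than 1 list. Promoters are RefSeq's, matched by symbol for 10 of 10 genes (2 windows for Psat1).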

Additional observations from a re-analysis of the deposited data

How the results depend on the processing

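The 16 alternatives were quantile normalization, arrays centred on their medians, cyclic loess, dim genes left out, the mean of probe sets, every probe set tested, trend and robust moderation, array weights, ordinary variance, the replicate block, and each of the 6 arrays left out. Slc7a11 was higher in all 16 and 6 to 8 of the 10 genes were lower. No direction of the 10 genes turned in any of 159 values, 7 lost a call and 1 gained one. Ordinary variance lost Phgdh (adjusted p = 0.144) and Chac1 (0.137), and called 1484 genes higher and 1880 lower, against 2671 and 2888 in the main test. With the replicate block 7 of the 10 genes were lower, since Chac1 missed the threshold (adjusted p = 0.054), and 2311 genes were higher and 2666 lower in all. The other losses were the 4 for Chac1 with 1 array left out, and the gain was Trib3 without FR replicate 3. Trib3 was not tested with dim genes left out. Centring gave 1880 higher and 3447 lower, with 8 of the 10 lower and Slc7a11 higher as before. With 1 array left out, 1803 to 2975 genes were higher and 2230 to 2939 lower. Among the lists, trend and robust moderation raised the falls in the unfolded protein response list from 4 to 7, while ordinary variance lowered the falls from 4 to 2 in the asparagine list and in the NRF2 list and from 1 to 0 in the list of sestrin, tribbles and CHAC relatives. Rises ranged from 0 to 3 for transporters, from 0 to 3 for other ATF4 targets and from 0 to 1 for the eIF2α list. In the asparagine list they went from 2 to 1 in 9 of the 16 alternatives. Quantile normalization, centring, cyclic loess and the replicate block were among these. Depth does not apply to arrays; signal near background limits Trib3 and the DMSO level of Slc7a11.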
